A study of Mus musculus with 17 samples.

Results

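The genotype difference common to both treatments was described by setting the 8 libraries labelled Smad3 knockout against the 9 labelled Smad3 wild type, which together are all 17 libraries of the study. Membership came from the labels alone. The cells were mouse bone marrow-derived macrophages of strain C57BL/6J (H-2b) on every label, which marrow cells become in culture with M-CSF, the macrophage growth factor, here 50 ng/ml over 7 days. The groups were wild type without treatment (Smad3-WT, control, n = 5), wild type given the cytokine TGF-β1 (5 ng/ml, 5 days) (n = 4), knockout without treatment (Smad3-KO, control, n = 5) and knockout with the same TGF-β1 treatment (n = 3). Groups follow the titles and treatment labels, since the treatment protocol reads the same for controls. The sources used here do not say how the allele was made or how old the mice were. The study's design names a sort by smooth muscle actin among F4/80-expressing cells, which no label ties to a library, and that division was not analysed here.

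Smad3 is a transcription factor that is phosphorylated by the activated TGF-β receptor, joins Smad4 and binds target genes in the nucleus. In macrophages the pathway holds back inflammatory genes and, in injured tissue, has been linked to a change towards matrix-producing, contractile cells. Many of the transcripts described here come from ribosomal protein genes. These genes encode the structural proteins of the ribosome, are among the most expressed genes of any cell, and have left many processed pseudogenes, which are copies of their mRNA inserted elsewhere in the genome, some nearly identical to the parent gene. A short read from such a pair can often be placed on either member.

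Gene expression was available as TPM, a relative abundance that corrects for transcript length and has the same total in every library. Between 7269 and 9974 genes reached TPM 1 in a labelled wild-type library (median 8489), and between 8023 and 10307 in a labelled knockout library (median 9498). Read depth cannot be taken from TPM and is unknown. Among moderate genes, those averaging 10 to 50 TPM over the rest of the group, 4.08% to 14.8% were listed at 0 in a library, and 6 libraries (4 labelled wild type and 2 labelled knockout) were over 10%. The sources do not say plainly whether a library holds 1 cell or more. No label names an animal, a culture or a batch, so the p-values reflect the spread among libraries alone, which may be technical, and genotype and the animal or culture of origin cannot be told apart. All 12 macrophage markers (such as Csf1r, Adgre1, Cd68 and Lyz2) were tested and none was called or had an unadjusted p under 0.05. Over all tested genes these shares were 0.263% and 6.36%. Col1a1, Col3a1 and Pdgfra of fibroblasts, Ly6g, Mpo and Elane of neutrophils, Cd3e and Cd79a of lymphocytes, and Pecam1 and Cdh5 of endothelium were listed at 0 in all libraries. Other markers in these lists were present in some libraries of both labels. S100a8 of neutrophils reached 132.22 TPM in labelled wild-type control 4 and 34.6 TPM in labelled knockout control 5. Mmp8, another neutrophil marker, reached 136.33 TPM but was present in too few libraries to be tested. Summed over the 9 neutrophil markers, the highest library had 132.3 TPM among labelled wild-type and 170.9 TPM among labelled knockout libraries. Kdr of endothelium reached 27.1 TPM, Egfl7 36.82 TPM and the dendritic cell marker Itgax 19.13 TPM, and none of these was called. Their part in the results was not tested. Xist was at most 0.01 TPM, and the Y-linked Eif2s3y was 22.94 to 152.34 TPM, so no library stood apart by sex.

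Smad3 itself (ENSMUSG00000032402) served as the check of the labels. Its TPM in labelled wild-type controls 1 to 5 was 0, 0.01, 0, 15.38 and 11.54, and it was listed at 0 in all 4 labelled wild-type TGF-β1 libraries. In labelled knockout controls it was 0, 0.27, 1.93, 0 and 0, and in labelled knockout TGF-β1 libraries 6.18, 0.01 and 22.26. The groups overlapped, and TPM 1 was reached in 2 of 9 labelled wild-type and 3 of 8 labelled knockout libraries. The treatment-adjusted difference of log2(TPM + 1), labelled knockout minus labelled wild type, was 0.31 (two-sided exact permutation p = 0.697, genotype labels exchanged within each treatment), and it turned to -0.26 without labelled knockout TGF-β1 library 3. Within controls it was -1.16 (exact permutation p = 0.365), and within TGF-β1-treated libraries, against the labels, 2.47 (exact permutation p = 0.0286, the minimum for 3 against 4 libraries). The TPM level is for the whole gene, and the sources used here do not say which part of Smad3 the allele lacks. Because the Smad3 transcript did not follow the labels, groups are named by their labels throughout, and every direction below rests on those labels. The other Smads also missed the threshold. Smad5, which carries bone morphogenetic protein signals, differed by -0.92 ± 0.81 (adjusted p = 0.93 in limma), Smad4, the common partner, by -0.66 and Smad2, the close relative of Smad3, by -0.41 on the log2 scale.

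Only a few genes differed by genotype label, and most of them were ribosomal protein genes, pseudogenes or unnamed identifiers. Of 12158 tested genes, 32 passed limma's moderated test with treatment as covariate at a Benjamini-Hochberg adjusted p under 0.05 (0.263%), of which 18 were higher (0.148%) and 14 lower (0.115%) in libraries labelled knockout. The levels of 28 genes did not overlap between the 8 labelled knockout and the 9 labelled wild-type libraries (0.23%; 0.123% above and 0.107% below), and 25 of these are among the 32. The 3 others were Nfu1, Tma7-ps and Gm17511. Several of the 32, named further on, reached TPM 1 under a single label only and passed the filter on low levels through it. By gene class, of 104 tested ribosomal pseudogenes, 4 rose and 5 fell (8.65%), and of the 78 ribosomal protein genes, 2 rose and 2 fell (5.13%). Among 424 other pseudogenes, 7 rose and 3 fell (2.36%), and 4 of 720 identifiers without a symbol fell (0.556%). Of the 10155 other protein-coding genes, 5 rose and none fell (0.0492%). The difference in these shares between classes was not tested. By chromosome, the X chromosome held the highest share of called genes, 4 of 406 (0.985%), ahead of chromosome 6 with 4 of 525 (0.762%). All of those on the X chromosome were processed pseudogenes (5730416F02Rik, Rpl3-ps1, Rps2-ps13 and Vcp-rs). On chromosome 6 they were Npy and the processed pseudogenes Rpl34-ps1, Gm10420 and Gm7887, so the ranking is largely one of pseudogene positions.

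The called differences were seen in both treatments. For every called gene the difference within controls and the difference within TGF-β1-treated libraries had the same sign, as the plot of both differences shows. These genes were chosen by the fit over the same libraries, so a shared sign was favoured in advance and is given as description. No gene passed the test of the interaction, which asks whether the genotype difference differed between treatments, in limma (0 of 12158 called; 569 had an unadjusted p under 0.05, 4.68%). Across genes, the differences in the 2 treatments, which share no library, had a Pearson correlation of 0.0956 over all 12158 tested genes and 0.0542 over the 10155 protein-coding genes outside the ribosome. Over the 182 ribosomal protein genes and ribosomal pseudogenes it was 0.846, and over all 528 pseudogenes 0.557. These correlations describe the tables, since genes are not independent replicates and whether the treatments share animals is unknown. Libraries of the same treatment correlated with a median r of 0.849 within a genotype label (29 pairs) and 0.846 between labels (37 pairs).

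**Figure D1:**
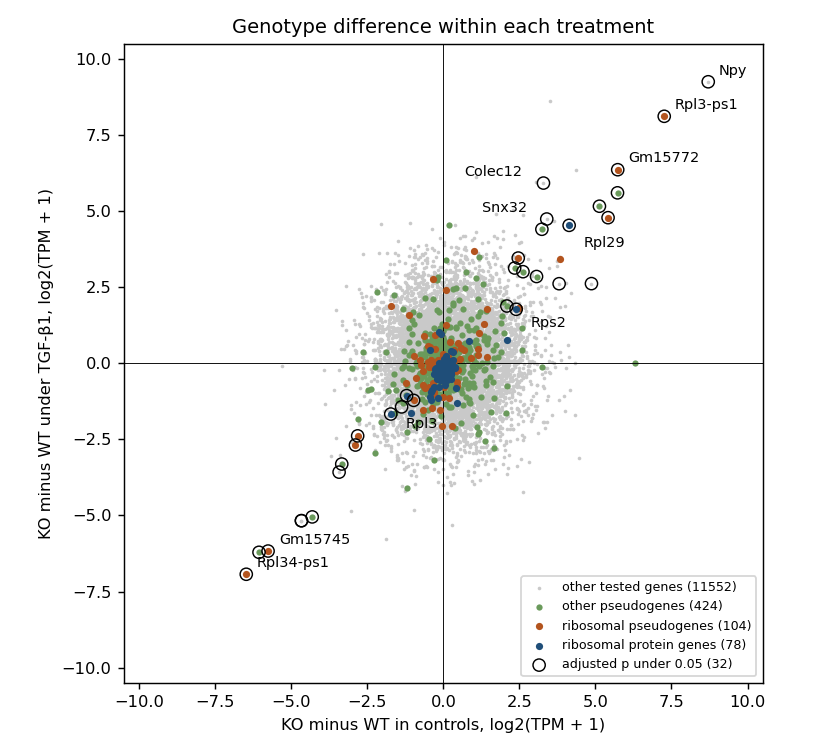
Each point is a tested gene, with the labelled knockout minus wild-type difference of log2(TPM + 1) in controls on the x axis and under TGF-β1 on the y axis; rings mark the 32 genes with an adjusted p under 0.05 in the fit over both treatments. The ringed genes have the same sign in both treatments, which their choice by the fit over both treatments favours. Some lie off the diagonal, such as Colec12 (3.29 in controls and 5.93 under TGF-β1) and Ndufaf1 (4.87 and 2.62). The 10155 protein-coding genes outside the ribosome, in the grey cloud, have a correlation of 0.0542.

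Every called ribosomal protein gene belongs to 1 of 6 pairs of such a gene and a pseudogene, and the sequences show how little separates the copies. Many called genes, Npy among them, lie outside these pairs. Each pair is given below as a stretch of 60 bases, 5′ to 3′, of the parent's coding sequence and the matching stretch of the pseudogene, from GENCODE vM21 transcripts of GRCm38, and capitals mark the letters that differ within the pair. The parents lie on chromosomes 15 (Rpl3), 11 (Rpl26), 3 (Rpl34), 16 (Rpl35a), 17 (Rps2) and 9 (Rpl29), and the copies on chromosomes X (Rpl3-ps1 and Rps2-ps13), 5 (Gm15772 and Gm13841), 6 (Rpl34-ps1) and 1 (Rpl35a-ps2).
Rpl3: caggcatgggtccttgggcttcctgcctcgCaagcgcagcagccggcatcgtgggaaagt
Rpl3-ps1: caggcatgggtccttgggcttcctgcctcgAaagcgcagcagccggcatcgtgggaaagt
Rpl26: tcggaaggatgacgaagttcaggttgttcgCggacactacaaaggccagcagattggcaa
Gm15772: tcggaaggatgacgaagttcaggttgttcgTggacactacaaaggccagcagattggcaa
Rpl34: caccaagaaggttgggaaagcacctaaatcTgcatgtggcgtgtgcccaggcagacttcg
Rpl34-ps1: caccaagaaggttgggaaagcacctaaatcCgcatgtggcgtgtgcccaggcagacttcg
Rpl35a: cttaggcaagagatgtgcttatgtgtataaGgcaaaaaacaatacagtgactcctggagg
Rpl35a-ps2: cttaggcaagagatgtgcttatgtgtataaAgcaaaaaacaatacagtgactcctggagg
Rps2: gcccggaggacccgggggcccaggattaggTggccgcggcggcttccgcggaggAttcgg
Rps2-ps13: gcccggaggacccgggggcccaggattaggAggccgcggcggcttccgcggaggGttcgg
Rpl29: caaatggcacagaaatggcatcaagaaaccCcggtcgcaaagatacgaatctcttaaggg
Gm13841: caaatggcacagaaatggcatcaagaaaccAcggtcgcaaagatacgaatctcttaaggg
Over the whole aligned transcript, Rpl3-ps1 differs from Rpl3 at 2 of 1210 bases, Gm15772 from Rpl26 at 2 of 438 and Rpl34-ps1 from Rpl34 at 2 of 354. Rpl35a-ps2 differs from Rpl35a at 1 of 333 bases, Rps2-ps13 from Rps2 at 7 of 882 and Gm13841 from Rpl29 at 3 of 483. The submitters' build was mm9 and the reference here is GRCm38, so the letters in the annotation they used were not checked. RSEM divides reads among near-identical transcripts, and the value of each single member is therefore uncertain.

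Rpl3 encodes a protein near the peptidyl transferase centre of the large ribosomal subunit. Its TPM in labelled wild-type libraries had a lowest value of 406.54, a median of 730.8 and a highest of 996.07, and in labelled knockout libraries 132.82, 228.2 and 294.29. Every labelled knockout library was below every labelled wild-type library, and Rpl3 fell by 1.70 ± 0.22 on the log2 scale (SE, adjusted p = 9.05e-05). Its copy Rpl3-ps1 did the reverse. It was listed at 0 in 5 of the 9 labelled wild-type libraries and reached at most 19.2 TPM there, against a lowest value of 306.04, a median of 587.8 and a highest of 787.72 TPM in libraries labelled knockout. Rpl3-ps1 rose by 7.61 ± 0.62 (adjusted p = 1.3e-07), with no overlap. Of the TPM of the pair, the pseudogene held 0% to 1.89% in labelled wild-type and 64.7% to 74.8% in labelled knockout libraries.

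Rpl26, another protein of the large subunit that also binds the p53 mRNA, showed the same exchange. It fell by 1.15 ± 0.20 (adjusted p = 0.0061), from a median of 583.1 TPM (354.16 to 784.99) to 284.7 (173.71 to 375.83), and the ranges overlapped. Without the 6 libraries with over 10% of moderate genes at 0, Rpl26 had a difference of -1.12 (adjusted p = 0.218). Gm15772 rose by 5.99 ± 0.47 (adjusted p = 9.85e-08), from a median of 2.28 TPM (0.45 to 16.33) to 275.3 (165.14 to 345.11), without overlap. The pseudogene's share of the pair had a median of 0.446% in labelled wild-type and 49.0% in labelled knockout libraries.

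Of Rpl35a, a large-subunit protein, the copy passed and the gene did not. Rpl35a-ps2 had a median of 5.86 TPM (0 to 17.1) in labelled wild-type and 196.5 TPM (105.11 to 325.06) in labelled knockout libraries, without overlap, and rose by 5.16 ± 0.60 (adjusted p = 2.32e-05). Rpl35a itself did not pass, with a difference of -0.72 ± 0.25 (adjusted p = 0.557). The share on the pseudogene had a median of 1.93% against 47.5%.

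Of Rpl34, also a large-subunit protein, the copy was high in libraries labelled wild type. Rpl34-ps1 was 191.13 to 404.63 TPM (median 304.6) in labelled wild-type libraries and at most 3.99 TPM (median 2.98) in labelled knockout libraries. It fell by 6.66 ± 0.42 (adjusted p = 2.07e-09), the largest fall among the called genes. Rpl34 had a difference of 0.80 ± 0.24, which missed the threshold (adjusted p = 0.377). The pseudogene held 46.4% to 63.6% of the pair in libraries labelled wild type and 0% to 0.807% in libraries labelled knockout.

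Rps2, a protein of the small subunit near the mRNA entry, was 101.3 to 224.58 TPM (median 139.5) in labelled wild-type libraries and 395.87 to 935.68 (median 576.1) in labelled knockout libraries. It rose by 2.14 ± 0.22 (adjusted p = 5.97e-06) with no overlap. The copy Rps2-ps13 held 88.3% to 92.1% of the TPM of the pair in libraries labelled wild type and 32.7% to 63.3% in those labelled knockout. Rps2-ps13 fell by 1.07 ± 0.23 (adjusted p = 0.0455), from a median of 1270 TPM (1065 to 1696) to 621.0 (294.2 to 1086), with overlap. The call of Rps2-ps13 was lost in 14 of 17 fits without 1 library (adjusted p up to 0.136). A further copy, Gm10420, fell by 2.64 ± 0.43 (adjusted p = 0.00266), from a median of 53.02 to 8.09 TPM without overlap.

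Rpl29, a large-subunit protein that also binds heparin, was 2.25 to 9.84 TPM (median 6.04) in labelled wild-type libraries and 42.09 to 280.66 TPM (median 127.5) in labelled knockout libraries. It rose by 4.30 ± 0.46 (adjusted p = 6.92e-06), without overlap. In labelled wild-type libraries 96.9% to 99% of the TPM of the pair lay on Gm13841, against 47.1% to 76.4% in labelled knockout libraries. Gm13841 itself had a difference of -0.69 ± 0.24, which did not pass (adjusted p = 0.544).

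When each pseudogene was added to its closest protein-coding gene, no family with a called member passed as a sum. Pseudogenes with at least 90% identity over at least 50% of their length were added to the parent, a fit chosen after the data were seen. The Rpl3 family had a sum with a difference of 0.10 ± 0.22, the Rpl26 family -0.12 ± 0.18 and the Rpl29 family 0.06 ± 0.25 on the log2 scale. The Rps2 family had -0.25 ± 0.18, the Rpl35a family 0.25 ± 0.24 and the Rpl34 family -0.38 ± 0.23. Of the 17 families that hold a called member, 0 had a sum that passed in limma, and the smallest p was 0.118 for the Rpl34 family (adjusted p = 0.892). In some of these families the called copy was a small part, so the sum could hardly pass whatever the copy did. Gm7180 had a median of 3.145 TPM in labelled knockout libraries, against 117.1 TPM for the Timm17a family. Rps19-ps7 had 13.29 TPM in labelled wild-type libraries, against 1311.7 TPM for the Rps19 family. Taken one by one, the 78 ribosomal protein genes had a median absolute difference of 0.153 and a largest of 4.3, with 4 called and 9 at an unadjusted p under 0.05. As sums the same 78 had a median of 0.12 and a largest of 0.718, with 0 called and 0 at an unadjusted p under 0.05. Over all genes, the sums left 6 of 11728 called, namely Npy and Snx32, which were higher, and 5730416F02Rik and 3 identifiers without a symbol, which were lower. Whether transcripts or only the placement of reads differed between the copies was not tested.

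**Figure D2:**
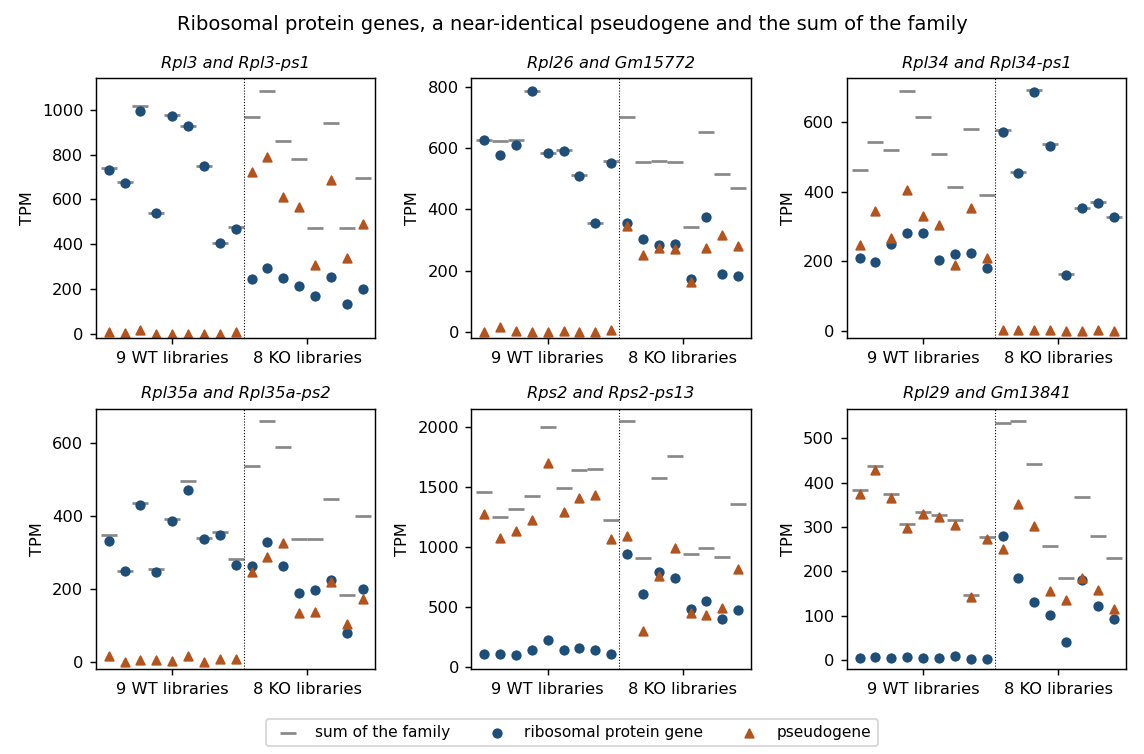
TPM of 6 ribosomal protein genes (circles), of 1 near-identical pseudogene of each (triangles) and of the whole family (bars), for the 9 labelled wild-type libraries on the left and the 8 labelled knockout libraries on the right of the dotted line in each panel. In each panel the gene, the pseudogene or both separate by label without overlap, while the family sums overlap, as for Rpl3, whose sum differed by 0.10 on the log2 scale.

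The share of TPM on ribosomal genes differed between labels by less than the spread between libraries. Ribosomal protein genes held 3.34% ± 0.303 of a library (SD, n = 9) in wild type and 3.28% ± 0.764 (n = 8) in libraries labelled knockout. Ribosomal pseudogenes held 1.53% ± 0.12 and 1.51% ± 0.389. The other called ribosomal pseudogenes were copies of Rps19 and Rpl14. Gm15745, a short copy of Rps19, was 35.09 to 81.09 TPM in libraries labelled wild type and was listed at 0 in all 8 labelled knockout libraries. Rps19-ps7 fell by 2.81 ± 0.55 (adjusted p = 0.0218), from 9.31 to 18.96 TPM in labelled wild-type to at most 1.89 TPM in labelled knockout libraries. Rps19 itself, a small-subunit protein with a median of 1219 and 1204 TPM, had a difference of 0.00 ± 0.16. Rpl14-ps1 rose by 2.87 ± 0.59 (adjusted p = 0.0342), from at most 3.79 TPM to 10.41 to 36.77 TPM. Rpl14 differed by -0.08 ± 0.21.

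Of the 18 called pseudogenes whose closest gene was tested, 16 had the opposite sign to that gene, differences near 0 included. These were 9 of 9 ribosomal pseudogenes, 4 of which had a closest gene that was itself called, and 7 of 9 others, none of which had. The 9 are not separate cases, since Rps2-ps13 and Gm10420 share Rps2, and Gm15745 and Rps19-ps7 share Rps19. Over all 429 tested pseudogenes with a tested closest gene, 175 had the opposite sign (40.8%). Gm10704, a copy of the RNA-binding protein gene Rtraf, was at most 0.47 TPM in libraries labelled wild type and 36.26 to 86.26 TPM in libraries labelled knockout, and rose by 5.68 ± 0.54 (adjusted p = 1.45e-06). Gm8615, a copy of Gnpda1, which encodes a glucosamine-6-phosphate isomerase, was at most 0.35 TPM against 21.87 to 65.92 TPM, and rose by 5.15 ± 0.54 (adjusted p = 6.92e-06). The sum of Gm8615 and Gnpda1 differed by 0.31 ± 0.29, and that of Gm10704 and Rtraf by 0.32 ± 0.35. Copies of Oaz2, Tomm22, Timm17a and Vcp also rose, by 2.01 for Gm7180 to 3.72 for Vcp-rs on the log2 scale, as did Gm7887, a copy of Pcnp at 1.12 to 21.58 TPM in libraries labelled knockout and listed at 0 in all those labelled wild type. Copies of Ckb (Gm12892) and Gpi1 (Gm1840) fell by 4.61 and 3.33. Gm7887, Vcp-rs and Rpl14-ps1 were each called in 5 of 17 fits without 1 library, and Rps19-ps7 in 13.

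Further genes fell for which no closest gene was assigned. 5730416F02Rik, an annotated processed pseudogene for which no parent gene was found at 90% identity, was 57.25 to 100.67 TPM in libraries labelled wild type and at most 0.19 TPM in libraries labelled knockout. It fell by 6.12 ± 0.50 (adjusted p = 1.3e-07). ENSMUSG00000071476, which has no symbol in the annotation and shares an identical row with 1 other called identifier, was 19.77 to 41.05 TPM against at most 0.37 TPM. It fell by 4.87 ± 0.53 (adjusted p = 9.86e-06). Both were uniformly present in one label and at or near 0 in the other, so their levels did not overlap.

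Of all tested genes, Npy had the smallest p. Npy (ENSMUSG00000029819) encodes neuropeptide Y, a secreted peptide known as a transmitter of sympathetic and hypothalamic neurons that regulates appetite. Its TPM was 0.41, 0.31, 0.28, 0.39 and 0.09 in labelled wild-type controls 1 to 5, and 0.28, 0.29, 0.2 and 0.99 in labelled wild-type TGF-β1 libraries 1 to 4. In labelled knockout controls it was 315.55, 1284.89, 173.37, 520.02 and 1237.87, and in labelled knockout TGF-β1 libraries 748.24, 1342.97 and 636.8. Every labelled knockout library was above 173 TPM and no labelled wild-type library reached TPM 1. Npy rose by 8.93 ± 0.47 on the log2 scale (adjusted p = 1.33e-10), by 8.71 ± 0.62 in controls and 9.26 ± 0.75 under TGF-β1. If a library holds more than 1 cell, more cells with the transcript and more of it per cell cannot be told apart.

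Snx32 (ENSMUSG00000056185), a sorting nexin of endosomal membranes, was at most 0.07 TPM in every labelled wild-type library. In labelled knockout controls it was 0, 29.55, 19.11, 6.68 and 30.42, and in labelled knockout TGF-β1 libraries 14.24, 40.37 and 29.67. All labelled knockout libraries but control 1 lay above all labelled wild-type libraries. Snx32 rose by 3.95 ± 0.67 (adjusted p = 0.0047), and the call was lost without the 6 libraries with over 10% of moderate genes at 0 (difference 3.68, adjusted p = 0.29). For Npy and Snx32, no labelled wild-type library reached TPM 1, so both passed the filter on low levels through the labelled knockout libraries alone. The same holds for Gm10704, Gm8615, Oaz2-ps, Gm12906, Gm7180 and Gm7887. Gm15745, 5730416F02Rik, Gm12892, Gm1840, ENSMUSG00000071476 and the identifier with the identical row passed through the labelled wild-type libraries alone.

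Colec12 (ENSMUSG00000036103) encodes a collectin-type scavenger receptor of the cell surface. It was 0.38, 1.16, 1.22, 2.09 and 4.35 TPM in labelled wild-type controls and 0.16, 0.5, 0.59 and 0.89 in labelled wild-type TGF-β1 libraries. In labelled knockout controls it was 33.28, 101.49, 62.93, 0.32 and 32.17, and in labelled knockout TGF-β1 libraries 73.4, 43.4 and 235.14. Control 4 was the one labelled knockout library within the wild-type range. Colec12 rose by 4.36 ± 0.82 (adjusted p = 0.0155), and the call was lost without labelled knockout TGF-β1 library 1 (adjusted p = 0.0578) or library 3 (adjusted p = 0.0613), and after quantile normalization (adjusted p = 0.0548). It was also lost in 4 more alternatives, with the highest adjusted p, 0.218, without the 6 libraries with over 10% of moderate genes at 0.

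2810004N23Rik, a protein-coding gene known by its clone name, was 0.04 to 11.75 TPM (median 2.82) in libraries labelled wild type and 13.75 to 66.93 TPM (median 47.49) in libraries labelled knockout, without overlap. It rose by 3.32 ± 0.65 (adjusted p = 0.0218). Its call was lost without each of labelled knockout controls 1, 3, 4 and 5 and TGF-β1 library 1, with adjusted p of 0.054 to 0.076. Of 14 other alternatives it was called in 8, and the highest adjusted p was 0.287, without the 6 libraries with over 10% of moderate genes at 0. Ndufaf1, an assembly factor of respiratory complex I, was at most 0.04 TPM in labelled wild-type controls, but 51.98, 0.2, 0 and 26.64 TPM in labelled wild-type TGF-β1 libraries. In labelled knockout libraries it was 12.65 to 66.05 TPM in every case, so the labels separated in controls and overlapped under TGF-β1. Ndufaf1 rose by 3.96 ± 0.82 (adjusted p = 0.0359), and in 15 of the 17 fits without 1 library the call was lost, with adjusted p up to 0.0982. Of 14 other alternatives it was called in 6, with an adjusted p of 0.522 without the 6 libraries named above.

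**Figure D3:**
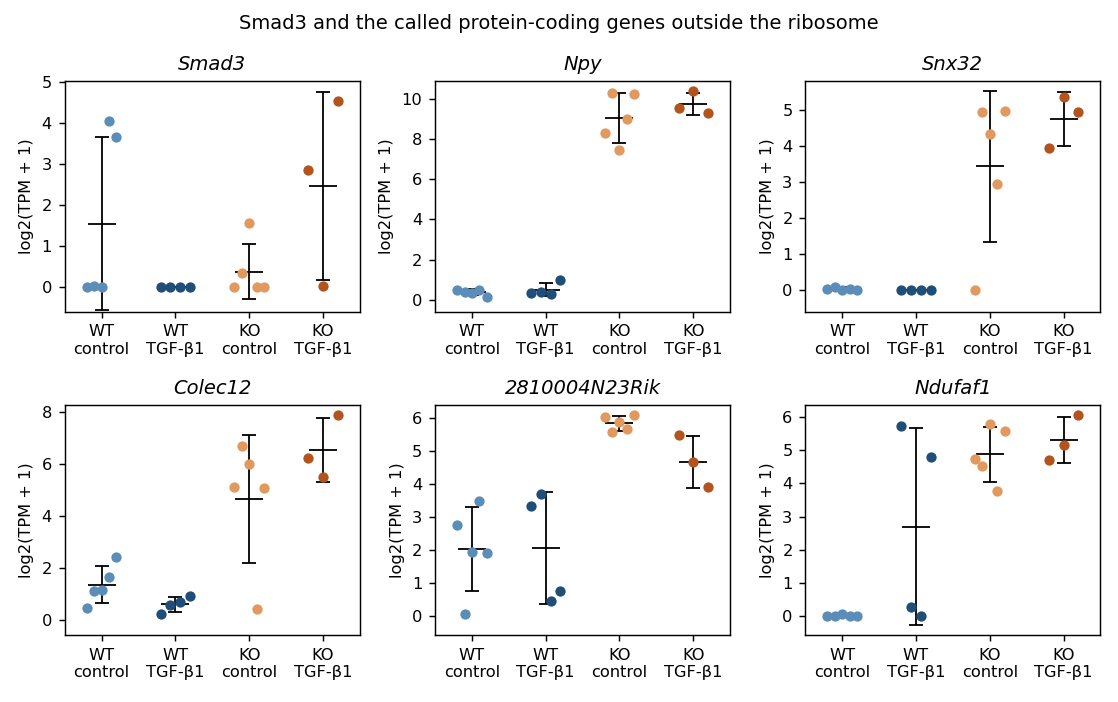
log2(TPM + 1) of Smad3 and of the 5 protein-coding genes outside the ribosome with an adjusted p under 0.05, 1 point per library, with the mean and SD of each of the 4 groups. Smad3 overlaps between labels, whereas Npy lies below 1 TPM in all labelled wild-type libraries and above 173 TPM in all labelled knockout libraries.

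The genes next in rank did not pass the threshold and are given as levels. Dcstamp, a membrane protein needed for macrophage fusion into osteoclasts and giant cells, was at most 0.29 TPM in 8 labelled wild-type libraries and 108.34 TPM in control 3. In labelled knockout controls it was 224.75, 121.82, 6.87, 144.57 and 0, and in labelled knockout TGF-β1 libraries 389.98, 514.8 and 373.07. Most labelled knockout libraries were thus high, with a difference of 5.58 (adjusted p = 0.0521). Dcstamp was called in 3 of 17 fits without 1 library, with adjusted p of 0.00249 to 0.164, and in 2 of 14 other alternatives. The other osteoclast genes tested, Atp6v0d2, Acp5 and Nfatc1 among them, did not pass either. Nfu1, which helps to assemble iron-sulfur clusters, was 17.36 to 93.31 TPM in libraries labelled wild type and 94.24 to 178.39 in libraries labelled knockout, a difference of 1.64 (adjusted p = 0.0521) without overlap. On the lower side, Pdcd5, a protein linked to apoptosis, differed by -1.18 (adjusted p = 0.0524) and Pld4, an endolysosomal nuclease of myeloid cells, by -1.07 (adjusted p = 0.0969). Ptger1, a receptor for prostaglandin E2, differed by -2.24 and Akr1e1, an aldo-keto reductase, by -3.42, both short of the threshold.

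Of the gene lists, the ribosomal protein list alone held called genes. Over all tested genes the median difference was 0.0956, with 6824 above 0 and 5334 below, 4.27% higher and 2.09% lower at an unadjusted p under 0.05 (6.36% in all). The median over all genes moved to -0.0184 after quantile normalization and to -0.0265 with the number of detected genes as covariate, shifts of more than 0.1, and the signs of list medians are read beside it. The 7 tested Smads and the 12 tested TGF-β ligands, receptors and activators had medians of -0.03 and 0.17, both of which changed sign in at least 1 alternative. Nrros, which holds latent TGF-β1 at the macrophage surface, had the smallest p of the second list, with 60.97 to 268.35 TPM in libraries labelled knockout against 0.13 to 123.22 TPM (difference 1.41 ± 0.67, adjusted p = 0.783).

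No TGF-β target gene was called. Of 21 tested, 8 had a difference above 0 and 13 below, and the median was -0.08. None was called or had an unadjusted p under 0.05. Over all tested genes 0.263% were called and 6.36% had such a p, so a list this short could hold none without differing from the rest. Klf10, an early TGF-β response gene, had a difference of 1.12 ± 0.61 (adjusted p = 0.833). Pmepa1, a target that damps TGF-β signalling, had -1.27 ± 0.86 (adjusted p = 0.884). It was 39.22 to 49.06 TPM in the 4 labelled wild-type TGF-β1 libraries and 4.43, 3.1 and 44.74 in the labelled knockout ones, which overlap. Of 9 contractile genes tested, 0 were called or had an unadjusted p under 0.05, and the median of -0.23 turned to 0.01 with no filter on low values. Of 5 matrix genes tested, 0 were called and 1, Plod2, a collagen lysyl hydroxylase, was lower at an unadjusted p under 0.05.

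No interferon-stimulated gene was called. Of 19 tested, 16 had a difference above 0 and 4 were higher at an unadjusted p under 0.05 (21.1% against 6.36% over all genes), with a median of 0.61. Dhx58, a helicase that senses viral RNA, had a median of 0.54 TPM (0 to 19.15) in libraries labelled wild type and 37.33 (4.6 to 194.35) in libraries labelled knockout, a difference of 3.53 ± 0.83 (adjusted p = 0.0907). Ifi35 had medians of 26.1 and 73.5 TPM and a difference of 1.82 ± 0.50 (adjusted p = 0.248). The list median was -0.03 without the 6 libraries with over 10% of moderate genes at 0.

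Of 15 tested MHC class I genes, 3 were higher at an unadjusted p under 0.05 (20% against 6.36% over all genes) and the median was 0.36. H2-D1, a class I heavy chain, had a difference of 0.52 ± 0.14 (adjusted p = 0.215) and B2m, its light chain, 0.38 ± 0.12 (adjusted p = 0.476). Of 18 fatty acid handling genes, 3 were higher at an unadjusted p under 0.05 (16.7% against 6.36%) and the median was 0.49. Cd36, a fatty acid transporter and scavenger receptor, had a median of 21.5 TPM (0.06 to 1161) against 240.6 TPM and a difference of 3.13 ± 0.83 (adjusted p = 0.215). Its controls overlapped, at 21.54 to 1161.35 TPM in labelled wild type and 97.79 to 861.37 TPM in labelled knockout. Under TGF-β1 the labels lay apart, at 0.06 to 0.36 against 38.81 to 282.51 TPM. Fcgr2b, the inhibitory receptor for IgG, had medians of 33.5 and 112.8 TPM and a difference of 3.71 ± 0.95 (adjusted p = 0.177).

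In the complement list, with 6 tested, C1qb, a chain of C1q, had a difference of 4.24 ± 1.34 and C5ar1, the receptor for C5a, -2.09 ± 0.67, neither of which passed. Of 20 cholesterol synthesis genes, 2 were lower at an unadjusted p under 0.05 (10% against 6.36% over all genes), and the median was -0.30. These were Cyp51 and Sc5d, with differences of -2.12 ± 0.75 and -1.22 ± 0.53. All 13 mitochondrially encoded genes had a difference below 0 (median -0.20), against 5334 of 12158 over all genes. The 13 are not separate cases. Their summed share of a library was 2.19% to 5.34% in labelled wild-type and 2.03% to 4.87% in labelled knockout libraries, with overlap. An unadjusted p under 0.05 was seen for 2 (15.4% against 6.36% over all genes), among them mt-Co1 at -0.43 ± 0.16 (adjusted p = 0.644). Microglia-type genes (8 tested) had a median of 0.13 that changed sign with a pseudocount of 10. Medians of lysosome (33 tested), proteasome (31), nuclear-encoded respiratory chain (58) and glycolysis genes (19) lay between -0.03 and 0.06, and 0 of these genes were called. At an unadjusted p under 0.05 (6.36% over all genes), 2 lysosome genes were higher and 1 lower. At that level 2 respiratory chain genes and 1 glycolysis gene were lower, and no proteasome gene stood on either side.

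**Figure D4:**
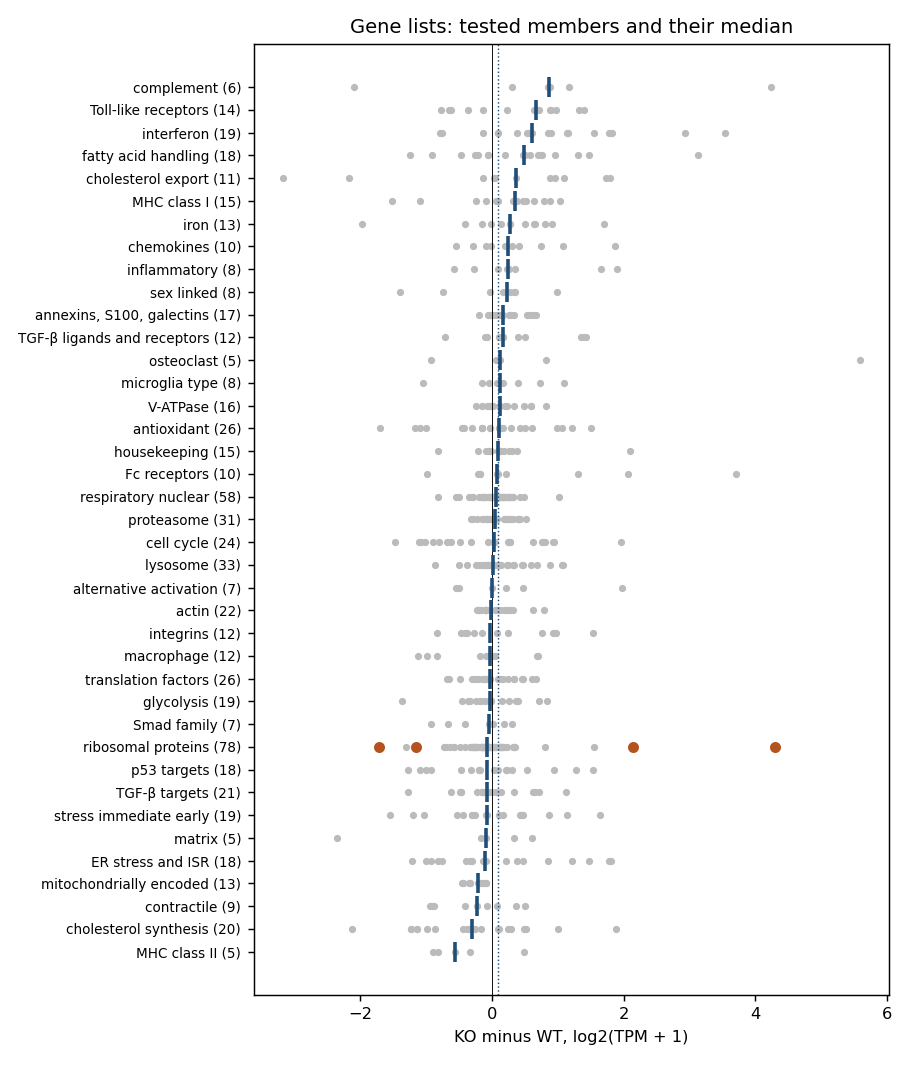
Labelled knockout minus wild-type difference of log2(TPM + 1) for the tested members of each gene list (points; number tested in parentheses), with the list median as a bar, the median over all genes as a dotted line and called genes in orange. Orange points appear in the ribosomal protein list alone, as 2 lower (Rpl3 and Rpl26) and 2 higher (Rps2 and Rpl29).

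Genes near the Smad3 locus were counted as a list of their own. Of 291 genes within 10 Mb of Smad3 on chromosome 9 in GRCm38, 134 were tested, 0 were called, 10 were higher and 3 lower at an unadjusted p under 0.05 (9.7% against 6.36% over all genes), and the median was 0.06. Tcf12, a transcription factor of the E-protein family, was at most 11.91 TPM in libraries labelled wild type (median 0.06) and 5.76 to 51.99 TPM (median 12.8) in those labelled knockout, with overlap. Its difference of 3.06 ± 0.70 missed the threshold (adjusted p = 0.078), as did that of Aph1b, a subunit of gamma-secretase, at 3.14 ± 0.74 (adjusted p = 0.0909). On the whole of chromosome 9, 1 of 613 tested genes was called, Rpl29. Nnt, a mitochondrial transhydrogenase that carries a deletion in C57BL/6J, had a median of 19.97 TPM in libraries labelled wild type and 29.1 TPM in those labelled knockout, a difference of 1.26 with overlap, and the gene-level value does not show whether the deleted exons were present.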

How the data were processed

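Expression was analysed in 17 libraries. The deposited values are TPM per gene, estimated by the authors with RSEM, per the labels; per the submitters' processing notes, reads passed FastQC and Trim Galore and the build was mm9, with no versions stated. cDNA was made by SMART-seq2. Of 37620 gene IDs, 32897 had a symbol in GENCODE vM21 (GRCm38), used for names, types, chromosomes and sequences. No column of values was left unused. The scale was log2(TPM + 1), on which changes of low genes are understated, and tested genes reached TPM 1 in 3 or more libraries. limma 3.58.1 in R 4.3.3 (lmFit, eBayes with a trend) was fitted over all 17 libraries with treatment and genotype label, and over the 4 groups for the interaction and the differences within a treatment. Errors of differences are SE. A call is a Benjamini-Hochberg adjusted p under 0.05, and every adjusted p is from limma, over all tested genes. Smad3 alone was tested by an exact permutation test. Pseudogenes were assigned to their closest protein-coding transcript with blastn 2.17.0. On simulated data with independent normal noise, the median estimates lay near the known differences. Those data held neither the exact zeros nor the coupled pseudogene pairs of the real libraries. The comparison, gene lists and tests were chosen with earlier results of these data known. Named were Smad3, called protein-coding genes with a symbol and a mean of at least 10 TPM (filled to 8 a direction with uncalled ones), list members of smallest p, called ribosomal pseudogenes, and up to 4 other called pseudogenes or clone names; 2810004N23Rik, Tma7-ps, Gm17511, the further called pseudogenes and Gm13841 were added after their values were seen. Replicate numbers are shared between groups. Within a treatment, same-numbered libraries of opposite genotype labels did not deviate together, so no pairs were used in the main fit. Whether same-numbered control and TGF-β1 libraries of a genotype label share an animal was not tested. Alternatives covered pseudocount, filter, scaling, covariates, pseudogenes and each library left out.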

Additional observations from a re-analysis of the deposited data

Results flagged for a closer look

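In 27 groups of 4 or 5 libraries over 9 genes, 5 held a library set apart from the others of its group by Dixon's criterion. The criterion marks about 1 group in 20 by chance where values are normal. Groups at or near 0 are not, so the count cannot be set against that rate. The flagged groups of Npy and Ndufaf1 stayed under 1 TPM throughout. Colec12 was 0.32 TPM in labelled knockout control 4 and 32.17 to 101.49 TPM in the other 4. Rpl26 was 784.99 TPM in labelled wild-type control 4 and 576.53 to 624.8 TPM in the others. Smad3 was 1.93 TPM in labelled knockout control 3 and at most 0.27 TPM in the others. Npy was 0.99 TPM in labelled wild-type TGF-β1 library 4 and 0.2 to 0.29 TPM in the others, and Ndufaf1 was 0.04 TPM in labelled wild-type control 3 and listed at 0 in the others.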

How the results depend on the processing

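The count of genes called by genotype label was 32, and 22 to 35 in the alternatives not named next. It was 6 (4 higher, 2 lower) with protein-coding genes alone, a setting that tests fewer genes, 6 with pseudogene families summed, and 18 (11 higher, 7 lower; 16 of them among the 32) without the 6 libraries with over 10% of moderate genes at 0, in which Snx32 had an adjusted p of 0.29 with 11 libraries left. Leaving out 1 library in turn gave 23 (without labelled knockout TGF-β1 library 1) to 35 calls. Of the 32 genes, 23 were called in all 17 such fits and 12, Npy among them, in every alternative that could test them. Quantile normalization gave 14 higher and 16 lower, against 18 and 14. The interaction count of 0 was 1 with no filter (Gm11336), 1 with the cell cycle mean as covariate (Ctsd), and 0 to 1 with 1 library left out (Gm10157 without labelled wild-type TGF-β1 library 4, Fah without labelled knockout TGF-β1 library 2); the cause was not tested. No family of called members passed as a sum in any alternative that kept pseudogenes. With families summed, Rps2 was at -0.2541 and Rpl3 at 0.1019. The Smad3 difference ranged from -0.2595 (without labelled knockout TGF-β1 library 3) to 0.771 with 1 library left out, and was 0.932 with a pseudocount of 0.1. Within a treatment, same-numbered libraries of opposite genotype labels did not deviate together (r of -0.0761 to 0.0158 over 8 pairs, 1 of 8 closest to its own number). Same-numbered control and TGF-β1 libraries were not compared. A fit with a replicate block gave 23 calls (12 higher, 11 lower), all among the 32, an interaction count of 0 and a Smad3 difference of 0.1996. Depth is unknown, so no limit of detection could be given.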

Other observations

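Several lysosomal and cytoskeletal genes lay nearest to the threshold in their lists without passing it. Man2b1, the lysosomal alpha-mannosidase, was 36.38 to 649.71 TPM (median 109.1) in libraries labelled wild type and 154.5 to 884.13 TPM (median 243.0) in libraries labelled knockout, a difference of 1.09 ± 0.31 on the log2 scale (limma, adjusted p = 0.303). Ctsc, the lysosomal dipeptidyl peptidase cathepsin C, had a difference of 1.07 ± 0.36 (adjusted p = 0.502), while Ctsh, cathepsin H, had -0.87 ± 0.34 (adjusted p = 0.678). Of 22 actin genes, 2 were higher at an unadjusted p under 0.05 (9.09% against 6.36% over all genes), and 0 were called. These were Cap1 (0.79 ± 0.24) and Tmsb10 (0.62 ± 0.21), which bind actin monomers. Of 24 cell cycle genes, 2 were lower at that level (8.33%), among them Mcm6, a subunit of the replicative helicase, at -1.10 ± 0.42 (adjusted p = 0.66). The ranges of these genes overlapped between the labels. Rpl30, a large-subunit ribosomal protein whose call was missed, had medians of 194.1 and 105.4 TPM and a difference of -1.30 ± 0.35 (adjusted p = 0.228).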
